A study of Mus musculus with 28 samples.

Results

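Murine bone marrow-derived macrophages (BMDMs) that had been exposed to von Willebrand factor (VWF) for 16 h were compared directly with BMDMs that had been exposed to bacterial lipopolysaccharide (LPS) for the same time. By their labels, 9 of the 28 cultures of the series belong to this comparison, 5 with VWF and 4 with LPS, and all genes of the count table were considered. Plasma-derived VWF (pd-VWF) was given at 10 µg/ml and LPS at 100 ng/ml. The VWF was purified from human plasma and free of factor VIII. Each agent was used at a single dose, so the comparison is of these doses. The other cultures are 5 PBS controls at 16 h, used here as the background level of each gene, and the 14 cultures of the 3.5 h time, of which the 5 with VWF and the 4 with LPS serve to compare the times. All groups share the same cells and handling. The BMDMs were grown from bone marrow of C57/B6JB mice in M-CSF, the growth factor that carries macrophages through survival and division, plated, washed with PBS and given fresh medium with CaCl2 together with the agent. No gene was deleted or introduced, the labels give neither age nor sex of the mice, and the ages in weeks that the study's methods give, as more than 1 range, are not printed here. The labels call the cultures biological replicates without naming the animal behind each, so p-values measure the spread between these cultures.

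VWF is made by endothelial cells and megakaryocytes, circulates as chains of joined subunits with factor VIII bound to it, and is needed for platelets to stick where a vessel is damaged. Macrophages bind VWF and take it up, among others through the endocytic receptor LRP1. LPS, from the outer membrane of Gram-negative bacteria, is sensed by Toll-like receptor 4 (TLR4), whose adaptor MyD88 leads to NF-kappaB and MAP kinase activity and whose adaptor TRIF leads to type I interferon and, through STAT proteins, to interferon-stimulated genes. Activated macrophages of this kind are known for cytokine and chemokine release, nitric oxide synthesis and aerobic glycolysis.

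Between 49077751 and 77699206 reads were counted per culture with VWF, and between 49191460 and 66425251 with LPS. TMM scaling factors, which correct for a share of the reads taken up by a subset of genes, lay between 0.994 and 1.12 with VWF and between 0.735 and 0.848 with LPS, with no overlap. The share of reads on mitochondrially encoded genes was 0.551 to 0.721% with VWF and 0.269 to 0.467% with LPS, and the share on ribosomal protein genes was 5.17 to 8.29% and 2.73 to 5.43%. Among the LPS-treated cultures, replicate 4 stood apart, with a read on 16011 genes beside 19029 to 19485 in replicates 1 to 3. It also set the 0.269% and the 5.43%, beside 0.364 to 0.467% and 2.73 to 3.58% in replicates 1 to 3. Of the 16 h controls, replicate 5 stood apart, with a TMM factor of 0.945, a read on 16690 genes and 11.8% of reads on ribosomal protein genes. The other controls at 16 h had factors of 1.17 to 1.18, 19184 to 19976 genes and 5.70 to 6.61%. Replicate 5 sets an end of some control ranges below, as for the summed macrophage markers and the summed mitosis genes. Levels are given as CPM, read counts scaled to a common library size and corrected with the TMM factors. The labelled cell type was checked with marker genes. All 16 macrophage markers were expressed, among them Csf1r, the M-CSF receptor, at 1178 to 1808 CPM with VWF and 520.1 to 1078 CPM with LPS. Of 42 markers of other cell types, 27 stayed under 1 CPM in all 9 cultures and 4 had no read. Among the neutrophil markers, Ly6g had no read, while S100a8 reached 21.3 CPM with VWF and 24.3 CPM with LPS, S100a9 reached 8.57 and 7.01 CPM, Ngp 2.63 and 2.42 CPM and Ltf 1.94 and 1.34 CPM. Higher levels were found for the fibroblast collagen genes Col1a1, up to 124 CPM with VWF and 134 CPM with LPS, and Col1a2, up to 148 and 165 CPM, and the summed stromal markers overlapped between the groups at 58.3 to 299.8 and 101 to 401 CPM. The summed dendritic cell markers lay at 0.933 to 2.95 CPM with VWF and 13.8 to 31.3 CPM with LPS, nearly all of it from Xcr1 (log2 fold change −3.62, SE 0.35, adjusted p = 1.21e-05), and the endothelial receptor Kdr was also lower with VWF (log2 fold change −5.14, SE 0.19, adjusted p = 3.73e-08). The part of these cells in the results was not tested.

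A gene was tested when at least 1 of the 9 cultures reached a TPM (length-normalized transcript share) of 10, and called at a Benjamini-Hochberg adjusted p under 0.05 in edgeR's quasi-likelihood test together with an absolute log2 fold change over 1. In all, 7574 genes were tested and 1932 were called (25.5%), of which 837 were higher with VWF (11.1%) and 1095 were lower with VWF (14.5%). Most of the called genes, 1816, were protein-coding. At any fold, 4586 genes passed the adjusted p (60.5%). The 5 VWF-treated and the 4 LPS-treated cultures did not overlap for 3909 genes (51.6%) and for 1846 of those called. Called genes had a median absolute log2 fold change of 1.59, and the extremes were uneven, since 128 genes were lower with VWF by more than 4 on the log2 scale and 23 were higher by more than 4. In bulk RNA of this kind, fewer cells of a type and less RNA per cell cannot be told apart.

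The balance of the directions depends on the scaling. The median log2 fold change over all genes tested was 0.0022 with TMM factors and 0.44 when only the library size was used. Under the latter 2426 genes were called, 1726 higher and 700 lower, so 71.1% of the calls were higher with VWF in place of 43.3%. Fold changes below are relative to the TMM scaling, and gene lists whose counts moved by over 1.5 times without it are given with both counts. The lists added after their values had been seen, and the markers of other cell types, were not recounted without the TMM scaling. The filter admits a gene that is expressed in a single group, so counts over the genes that passed it describe a list and are to be read against the shares over all genes.

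**Figure D1:**
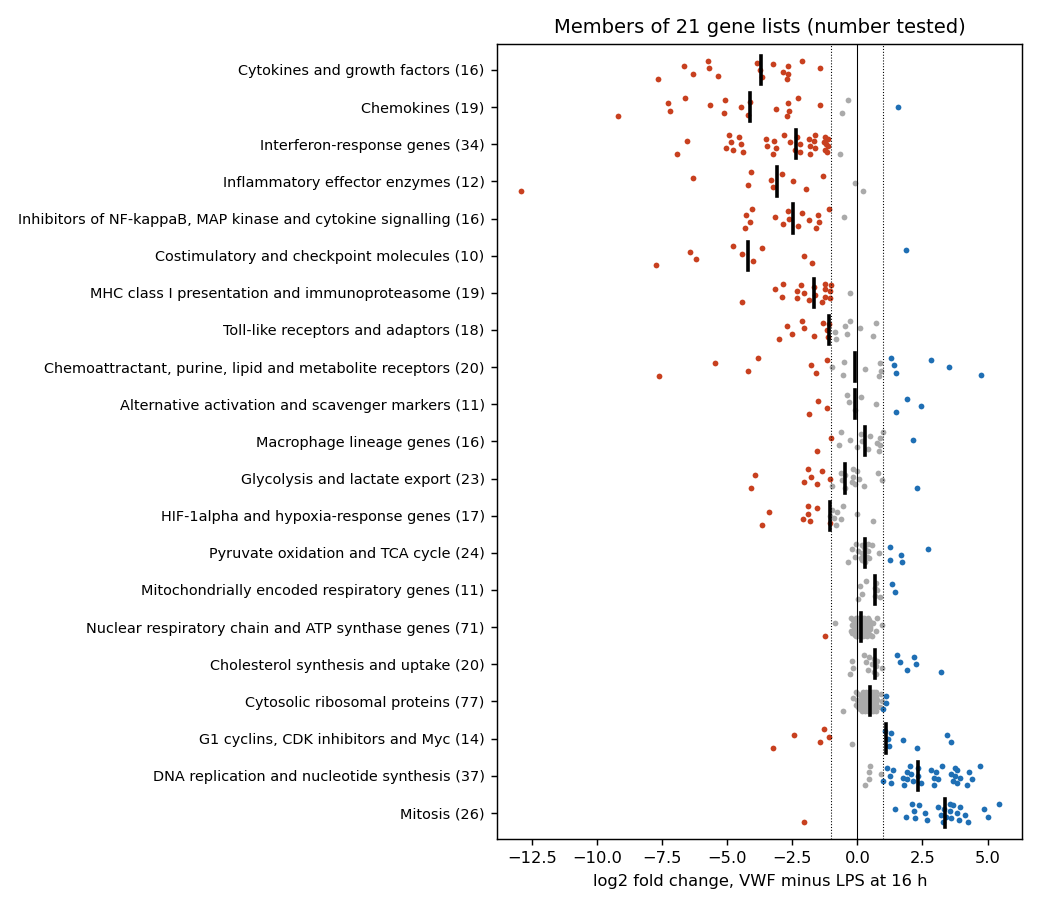
Log2 fold change of VWF over LPS at 16 h (horizontal axis) of the tested members of 21 gene lists, with 1 point per gene and a bar at the list's median. The medians run from −4.22 for costimulatory and checkpoint molecules to 3.36 for mitosis.

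The lowest log2 fold change of any gene was that of Nos2 (ENSMUSG00000020826, chr11:78920787-78960254, plus strand, all on GRCm38), the inducible nitric oxide synthase. Nos2 had 0.0943, 0.319, 0.492, 0.319 and 0.128 CPM in the 5 VWF-treated cultures and 2863, 2253, 2361 and 999.9 CPM in the 4 LPS-treated cultures (log2 fold change −12.90, SE 0.57, adjusted p = 8.62e-08). Control cultures at 16 h held 0, 0, 0, 0.0651 and 0 CPM. No VWF-treated culture came above 31 Nos2 reads, every LPS-treated culture held about 1000 CPM or more, and the groups were apart by orders of magnitude. Of 14 inflammatory effector enzymes, 12 were tested and 10 were lower with VWF, at a median log2 fold change of −3.08 beside 0.0022 over all genes. Prostaglandin synthase Ptgs2 (cyclooxygenase-2) was at 12.1, 4.71, 2.57, 4.99 and 1.41 CPM with VWF and at 543, 399, 331 and 377 CPM with LPS (log2 fold change −6.32, SE 0.60, adjusted p = 1.1e-05). Its VWF-treated cultures overlapped the controls, at 1.70 to 6.54 CPM, and the LPS-treated cultures lay above both.

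Other effectors were well above the control level with either agent. Acod1, which makes itaconate, averaged 295 ± 76.4 CPM over the 5 cultures with VWF and 5457 ± 1365 CPM over the 4 with LPS, as mean ± SD (log2 fold change −4.21, SE 0.25, adjusted p = 5.1e-07), while the 5 controls held 1.26 to 12.6 CPM. The cationic amino acid transporter Slc7a2, which imports arginine, differed by −4.08 and the prostaglandin E synthase Ptges by −2.91. Cd38, an ectoenzyme that consumes NAD, was at 17.4 to 43.2 CPM with VWF, 151 to 246 CPM with LPS and 0.831 to 1.87 CPM in controls (log2 fold change −2.46, SE 0.26, adjusted p = 2.08e-05). Sod2, the mitochondrial superoxide dismutase, followed at −1.32. The 2 effectors that were not called were Cybb, the catalytic subunit of the phagocyte NADPH oxidase (log2 fold change −0.094, SE 0.16, adjusted p = 0.646), and Ass1, which regenerates arginine from citrulline (log2 fold change 0.22, SE 0.20, adjusted p = 0.371). Both were above their control ranges of 424 to 516 and 5.57 to 23.7 CPM in the VWF-treated cultures, at 1102 to 1687 and 279.7 to 529 CPM.

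**Figure D2:**
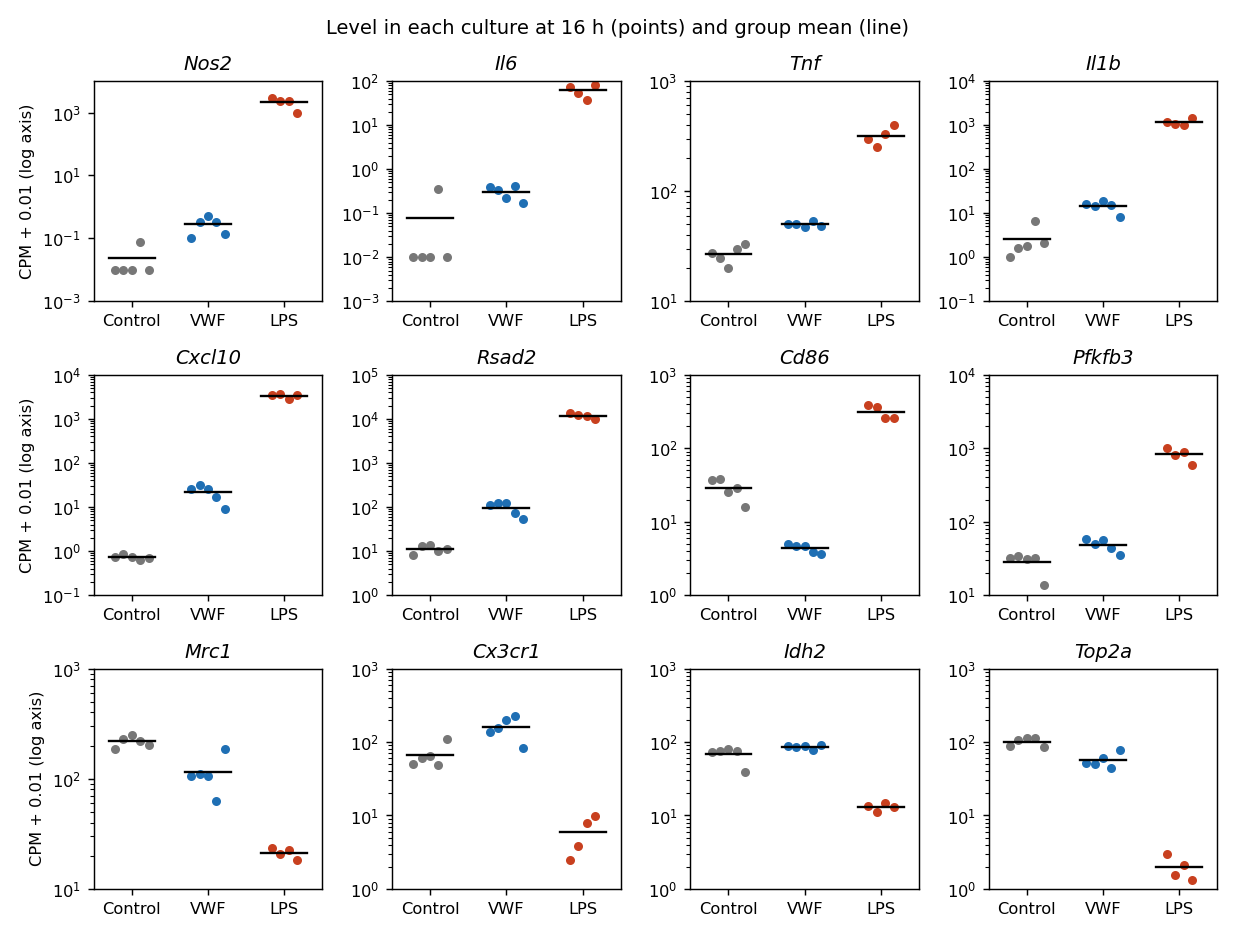
Level of 12 genes in each culture at 16 h as CPM plus 0.01 on a log axis (vertical), for controls, VWF and LPS (horizontal), with 1 point per culture and a line at the group mean. Nos2, Il6, Tnf, Il1b, Cxcl10, Rsad2, Cd86 and Pfkfb3 are lower with VWF than with LPS, Mrc1, Cx3cr1, Idh2 and Top2a are higher, and the VWF-treated and LPS-treated cultures do not overlap in any of them.

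Cytokines were lower with VWF throughout the genes tested. Of 22 cytokine and growth factor genes, 16 passed the filter and 16 of these were lower with VWF, with a median log2 fold change of −3.69. Their summed level was 317 to 531 CPM with VWF, 13430.3 to 18039 CPM with LPS and 707 to 1304 CPM in controls, so the VWF-treated cultures lay below the controls. The gene that sets this sum is Il1rn, the antagonist of the IL-1 receptor, at 142 to 342 CPM with VWF, 11025 to 15136 CPM with LPS and 447 to 951 CPM in controls (log2 fold change −5.70, SE 0.26, adjusted p = 9.44e-08).

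Il6 (ENSMUSG00000025746, chr5:30013114-30019981, plus strand), the acute-phase cytokine, was at 0.377, 0.331, 0.206, 0.408 and 0.165 CPM with VWF and at 73.8, 54.4, 37.2 and 79.5 CPM with LPS (log2 fold change −7.66, SE 0.33, adjusted p = 8.15e-08). Il1b, the inflammasome-processed pyrogen, was at 16.5, 14.3, 18.5, 15.4 and 8.27 CPM and 1159, 1049, 1019.5 and 1414 CPM (log2 fold change −6.31, SE 0.25, adjusted p = 5.72e-08). Tnf had 50.3, 50.4, 47.3, 53.9 and 48.3 CPM and 300.4, 253, 328 and 396 CPM (log2 fold change −2.67, SE 0.12, adjusted p = 1e-07), with control cultures at 20.0 to 33.2 CPM. In these 3 genes every LPS-treated culture was above every VWF-treated one, and the difference was least for Tnf. The anti-inflammatory Il10 differed by −3.86, and Il12b, a subunit of IL-12 and IL-23, by −3.74. Il27 and Ebi3, whose products form IL-27, differed by −5.36 and −2.13. Csf1, which encodes M-CSF itself, was lower with VWF (log2 fold change −2.67, SE 0.39, adjusted p = 0.000226), at 14.7 to 43.2 CPM beside 85.9 to 242 CPM with LPS and 104 to 260.3 CPM in controls. Il1a differed by −6.64, and 11.2% of its exon length overlaps Gm14023.

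Chemokines, the ligands that recruit leukocytes, were mostly lower with VWF. Of 23 listed, 19 were tested, 16 were lower and 1 was higher with VWF (median log2 fold change −4.14). The interferon-inducible ligands of CXCR3 were far apart. Cxcl10 had 25.9, 30.8, 25.1, 16.6 and 8.87 CPM with VWF and 3453, 3653, 2809 and 3422 CPM with LPS (log2 fold change −7.28, SE 0.38, adjusted p = 2.4e-07), Cxcl9 differed by −6.62 and Cxcl11 by −9.20, although Cxcl11 shares 41.7% of its exon bases with Gm2673 and is annotated as a polymorphic pseudogene. Monocyte-recruiting Ccl2 was at 68.3 to 152 CPM with VWF, 1498 to 3142 CPM with LPS and 82.8 to 191 CPM in controls (log2 fold change −4.45, SE 0.29, adjusted p = 1.05e-06). For the chemokines Ccl3 (log2 fold change −4.22, SE 0.20, adjusted p = 1.51e-07) and Ccl4 (log2 fold change −5.14, SE 0.34, adjusted p = 9.76e-07) the VWF-treated cultures, at 21.3 to 37.3 and 15.2 to 29.7 CPM, lay below the controls, at 134 to 178 and 66.7 to 194 CPM. Ccl5 stood apart in its background: it was at 1.98 to 3.32 CPM in controls, 649.9 to 1405 CPM with VWF and 6371 to 8022 CPM with LPS (log2 fold change −2.69, SE 0.21, adjusted p = 3.02e-06). Cxcl14 was the chemokine higher with VWF (log2 fold change 1.56, SE 0.17, adjusted p = 3.11e-05). Cxcl16 and Ccl6 were not called, at −0.59 and −0.37. Ccl24, the eotaxin of alternatively activated macrophages, had 11 reads in all 5 VWF-treated cultures, 2.47 to 6.49 CPM with LPS and 7.44 to 14.9 CPM in controls (log2 fold change −7.20, SE 0.56, adjusted p = 2.82e-06).

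Interferon-response genes were together above control with both agents, and higher with LPS. All 34 listed genes were tested, and 33 were lower with VWF (median log2 fold change −2.35), Irf9 being the exception at −0.68. Summed over the list, the level was 789.7 to 1229.5 CPM in controls, 5166 to 8341 CPM with VWF and 52568 to 58056 CPM with LPS, with no overlap between any of these groups. Against the controls the median log2 fold change of the list was 2.80 with VWF and 4.98 with LPS, and these comparisons share their control cultures. Rsad2 (ENSMUSG00000020641, chr12:26442746-26456452, minus strand), the antiviral enzyme viperin, was at 111, 121, 125, 73.7 and 54.4 CPM with VWF and 13466, 12161, 11630.5 and 9870.4 CPM with LPS (log2 fold change −6.92, SE 0.30, adjusted p = 8.47e-08), and Cmpk2 beside it in the annotation at −6.49. The guanylate-binding protein gene Gbp5 (log2 fold change −6.53, SE 0.30, adjusted p = 1.07e-07), the RNA-binding Ifit1 at −4.87 and Ifit2 at −4.94, and the dynamin-like Mx1 at −4.77 followed. Differences were smaller for genes of the signalling chain, with Stat2 at −2.31 and Irf7 at −2.18. Tgtp1 (log2 fold change −8.35, SE 0.48, adjusted p = 4.23e-07) and Ifit1bl1 (log2 fold change −8.38, SE 0.45, adjusted p = 2.75e-07), both of interferon-inducible families, were among the 8 lowest genes, and 73.1% of the 100-base windows of Tgtp1 also occur in Tgtp2.

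Other interferon-inducible families were added after their values had been seen. Each of the 12 tested genes of the Ifi200 family, which holds DNA sensors, was lower with VWF, from −5.08 for Ifi214 to −1.54 for Aim2, and each of the 7 tested Schlafen genes was lower, from −5.64 for Slfn4 to −1.02 for Slfn9. Members of both families are similar in sequence, and how reads that map to several places were counted is not given. Of 6 caspases, the protease genes of cell death and inflammasomes, 5 were lower with VWF. Casp4, also known as caspase-11, a sensor of intracellular LPS, was at 25.9 to 31.2 CPM with VWF and 173 to 245 CPM with LPS (log2 fold change −2.94, SE 0.12, adjusted p = 7.05e-08), and Casp1 differed by −2.52.

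For genes of the cytokine, chemokine and interferon groups the promoter letters were examined. RefSeq promoters (GRCm38.p6), taken as the 250 bases before each start, were searched on both strands for the following letters. GGGA and TTCC with any 2 bases between them are a core of the NF-kappaB site. GAAA and GAAA with any 2 bases between them are a core of the interferon-stimulated response element. Shares are of genes with a promoter in the set, and a gene counted once if any of its promoters held a match. The kappaB letters were found for 1.36% of 27025 genes and 1.66% of the genes tested. They were found for 3.2% of genes lower with VWF and 1.22% of genes higher with VWF. The interferon element was found for 3.46% of all genes, 4.02% of the genes tested and 11.2% of genes lower with VWF. It was found for 14 of the 25 interferon-response genes with a promoter in the set (56.0%). Below, capitals mark the match, none of which overlaps a match of another motif searched, and each line is read 5′ to 3′ on the gene's strand. The chosen genes are those with values above, and a match is a description of the letters only.
Il6 kappaB, chr5:30013055-30013094, plus strand: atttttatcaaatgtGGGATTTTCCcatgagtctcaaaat
Cxcl10 kappaB, chr5:92349024-92349063, minus strand: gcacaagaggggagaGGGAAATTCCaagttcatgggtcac
Cxcl10 interferon element, chr5:92349078-92349117, minus strand: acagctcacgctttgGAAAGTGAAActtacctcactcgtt
Rsad2 interferon element, on the opposite strand, chr12:26456548-26456587, minus strand: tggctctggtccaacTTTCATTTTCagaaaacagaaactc

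Costimulatory and checkpoint molecules had the lowest median among the lists, at −4.22. Of 13 listed, 10 were tested, 9 were lower with VWF and 1 was higher. Cd86, a ligand of CD28, was at 4.94, 4.66, 4.69, 3.9 and 3.62 CPM with VWF and 385, 369.6, 257 and 255 CPM with LPS (log2 fold change −6.18, SE 0.19, adjusted p = 1.95e-08). Since control cultures held 16.1 to 38.1 CPM, VWF-treated cultures were below the background and LPS-treated cultures above it. Lag3 (log2 fold change −7.72, SE 0.41, adjusted p = 2.48e-07) and the early activation antigen Cd69 (log2 fold change −6.44, SE 0.21, adjusted p = 2.35e-08) were still farther apart. Cd274, which encodes PD-L1, differed by −4.76, and Cd40, the receptor of T cell help, by −4.43. Cd80, the other CD28 ligand, was at 6.70 to 9.64 CPM with VWF, 20.9 to 43.6 CPM with LPS and 14 to 22.3 CPM in controls (log2 fold change −2.06, SE 0.20, adjusted p = 1.44e-05). Havcr2, which encodes the inhibitory receptor TIM-3, was the member higher with VWF (log2 fold change 1.88, SE 0.25, adjusted p = 0.000129).

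Antigen presentation genes were lower with VWF where they were called. Of 19 tested genes of MHC class I presentation and the immunoproteasome, 18 were lower with VWF, at a median of −1.66, and 11 were lower when only the library size was used. The peptide transporter Tap1 (log2 fold change −2.30, SE 0.13, adjusted p = 3.36e-07), the immunoproteasome subunit Psmb9 at −1.87, the class I activator Nlrc5 at −2.15 and B2m, the light chain, at −1.02 are examples. H2-Q6, H2-Q7 and H2-T22 had the lowest values, −4.41, −3.17 and −2.88, but H2-Q7 shares 12.0% of its 100-base windows with H2-Q10 and 10.8% of those of H2-Q6 occur in H2-Q7, and 29.4% of the exon length of H2-T22 overlaps A930015D03Rik. Among 6 tested class II genes the median was −0.64, 4 were lower at any fold and H2-Eb1 was the member past the fold threshold (log2 fold change −1.58, SE 0.19, adjusted p = 6.06e-05), while Cd74, the invariant chain, was at −0.58 and H2-Ab1 at −0.69.

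Inhibitors of these pathways were also at higher levels with LPS. Of 17 inhibitors of NF-kappaB, MAP kinase and cytokine signalling, 16 were tested and 15 were lower with VWF (median −2.45). The cytokine signal suppressors Socs3 (log2 fold change −4.33, SE 0.25, adjusted p = 4.76e-07) and Socs1 at −4.11, the MAP kinase phosphatases Dusp1 (log2 fold change −4.29, SE 0.17, adjusted p = 5.05e-08) and Dusp2 at −4.05, the mRNA decay factor Zfp36 at −3.15 and the ubiquitin editor Tnfaip3 at −2.63 belong to them. Nfkbia, which encodes IkappaBalpha, was at 118 to 161 CPM with VWF, 405 to 599.9 CPM with LPS and 25.2 to 58.0 CPM in controls (log2 fold change −1.86, SE 0.14, adjusted p = 2.55e-06). Irak3, a brake on IL-1 receptor and TLR signalling, was not called at −0.51.

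On the receptor side, 18 of 20 genes of Toll-like and related receptors and their adaptors were tested and 10 were lower with VWF, or 5 lower and 2 higher with the library size alone. Tlr4, the LPS receptor, was not called, at 34.6, 38.1, 41.2, 31.4 and 42.4 CPM with VWF and 55.7, 53.0, 53.0 and 35.6 CPM with LPS (log2 fold change −0.39, SE 0.15, adjusted p = 0.0459). Its co-receptor gene Ly96, which encodes MD-2, was at −0.49. Myd88 differed by −1.32 and Ticam1, which encodes TRIF, by −1.65. The lowest values were those of the intracellular peptidoglycan sensors Nod1 (log2 fold change −3.0, SE 0.29, adjusted p = 1.19e-05) and Nod2 (log2 fold change −2.70, SE 0.28, adjusted p = 1.86e-05) and of Tlr3 (log2 fold change −2.52, SE 0.13, adjusted p = 1.97e-07), the sensor of double-stranded RNA. Tlr2, the lipoprotein receptor, was not called, with a higher mean of 156 CPM with VWF beside 102 CPM with LPS (log2 fold change 0.61, SE 0.11, adjusted p = 0.000713).

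Receptors for chemoattractants, purines, lipids and metabolites went both ways. Of 20 tested, 6 were higher and 7 were lower with VWF, and the median of −0.10 became 0.33 with the library size alone. The fractalkine receptor Cx3cr1 (ENSMUSG00000052336, chr9:119901616-120069879, minus strand) was the highest of them, with 138, 155, 200.5, 227 and 82.6 CPM with VWF and 2.47, 3.84, 7.77 and 9.93 CPM with LPS (log2 fold change 4.75, SE 0.49, adjusted p = 1.99e-05). Control cultures held 48.7 to 109 CPM, overlapping the VWF-treated cultures and above all LPS-treated ones. Cxcr4, the CXCL12 receptor (log2 fold change 3.53, SE 0.29, adjusted p = 4.54e-06), and the oxysterol receptor Gpr183 (log2 fold change 2.81, SE 0.15, adjusted p = 1.95e-07) were also higher with VWF, as was C5ar1, the receptor of complement C5a, at 1.29. On the other side were Hcar2, the receptor of beta-hydroxybutyrate and nicotinic acid (log2 fold change −7.60, SE 0.46, adjusted p = 5.62e-07), with 0.0710 to 0.384 CPM with VWF and 24.8 to 76.2 CPM with LPS, the atypical chemokine receptor Ccrl2 at −5.47, and the adenosine receptors Adora2b at −4.18 and Adora2a at −3.81. The formyl peptide receptors Fpr1 (−1.78) and Fpr2 (−1.57) were lower with VWF than with LPS yet far above control in both, with Fpr2 at 1.47 CPM in controls, 101 CPM with VWF and 299 CPM with LPS as group means.

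Of the 16 macrophage markers, 1 was called higher and 2 were called lower with VWF, and at any fold 7 were higher and 4 were lower. Their summed level was 31023 to 35192 CPM with VWF and 16827 to 21120 CPM with LPS, without overlap. Controls held 13330.1 to 23391 CPM, the lowest being replicate 5. Most of the difference between VWF and LPS in this sum is from Lyz2, with means of 16746 and 3807 CPM. The sum therefore does not describe the markers as a set. Lyz2, which encodes lysozyme, was higher with VWF at 17279.8, 17662, 18444, 13490.5 and 16852 CPM beside 3925, 4205, 4834 and 2263 CPM with LPS (log2 fold change 2.14, SE 0.22, adjusted p = 2.19e-05), and Fcgr1, the high-affinity IgG receptor, was lower (log2 fold change −1.54, SE 0.16, adjusted p = 2.11e-05). Mertk, the receptor for engulfing dying cells, was at the fold threshold (log2 fold change −1.0, SE 0.25, adjusted p = 0.00585), and its call was lost under the block on the replicate number, with the library size alone and without several single cultures. Adgre1, which encodes F4/80, was at 0.74, Csf1r at 0.88 and Cd68 at −0.29, none of them called. With the library size alone, 6 markers were higher and 1 was lower. The count of higher markers was 2 under the block, with limma voom and without LPS replicate 2, 3 or 4 or VWF replicate 3 or 5, and that of lower markers was 1 under the block and without LPS replicate 1, 2 or 3 or VWF replicate 4 or 5.

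Genes used as markers of alternative activation and scavenging did not share a direction, with 3 higher and 3 lower among 11 tested, and 1 lower without LPS replicate 1 or with the library size alone. Mrc1, the mannose receptor CD206, was at 106, 111, 106, 63.4 and 185 CPM with VWF and 23.6, 20.7, 22.7 and 18.4 CPM with LPS (log2 fold change 2.43, SE 0.28, adjusted p = 4.22e-05), with controls above both at 186 to 251 CPM. Gas6, a bridging ligand of dying cells (log2 fold change 1.90, SE 0.20, adjusted p = 2.33e-05), and the scavenger receptor Stab1 (log2 fold change 1.5, SE 0.15, adjusted p = 1.58e-05) were also higher with VWF. Arg1, the arginase that competes with nitric oxide synthase for arginine, was at 113, 56.5, 33.3, 43.9 and 5.32 CPM with VWF and 283, 214, 114 and 114 CPM with LPS, so that the highest VWF-treated culture came next to the lowest LPS-treated one (log2 fold change −1.85, SE 0.66, adjusted p = 0.0347). Its adjusted p rose to between 0.0605 and 0.0932 without LPS replicate 1 or 2 or VWF replicate 2, 3 or 4. The IL-4 receptor Il4ra was lower with VWF at −1.5 and the zinc finger gene Egr2 at −1.16. Marco, a scavenger receptor listed with the acute-phase and antimicrobial genes, was at 757 to 1273 CPM with VWF, 196 to 556 CPM with LPS and 5.14 to 8.43 CPM in controls (log2 fold change 1.44, SE 0.30, adjusted p = 0.00196).

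Receptors that have been reported to bind VWF are scavenger and endocytic receptors, integrins and a selectin ligand. Of 13 listed, 6 were tested and 0 were called by edgeR, with 3 at an unadjusted p under 0.05. These 3 also passed the adjusted p, 1 higher and 2 lower, with folds under the threshold. DESeq2 and limma voom also called 0, and edgeR called 1 higher with the library size alone and 1 higher in a fit of all 28 cultures. Lrp1 was at 413, 405, 483, 367 and 495 CPM with VWF and 414, 356, 430.3 and 255 CPM with LPS (log2 fold change 0.25, SE 0.17, adjusted p = 0.216), and these ranges overlapped. The scavenger receptor Msr1, also known as SR-A1, was at −0.31 and far above its control range of 219 to 284 CPM in both groups, at 763 to 1014 CPM with VWF and 979.5 to 1230.3 CPM with LPS. The beta2 integrin subunit Itgb2 was at 0.27, its partner Itgam at 0.84 and Selplg, the selectin ligand PSGL-1, at −0.81.

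Glucose use was compared through 23 genes of glycolysis and lactate export, all tested, of which 8 were lower and 1 was higher with VWF (median −0.48). With the library size alone 3 were higher, and without LPS replicate 3 there were 2. Pfkfb3, which makes the activator of phosphofructokinase, was at 58.1, 50.1, 56.8, 43.4 and 35.3 CPM with VWF and 1016, 799.8, 887 and 601 CPM with LPS (log2 fold change −4.08, SE 0.20, adjusted p = 1.77e-07), beside controls at 13.9 to 33.6 CPM. The hexose transporter Slc2a6 (log2 fold change −3.94, SE 0.12, adjusted p = 1.95e-08), the glucose transporter Slc2a1 (log2 fold change −1.36, SE 0.18, adjusted p = 0.000101), hexokinase Hk3 (log2 fold change −1.78, SE 0.13, adjusted p = 2.21e-06) and the lactate exporter Slc16a3 at −1.89 were lower too, and Slc2a1 passed under the fold threshold, at −0.93, with the library size alone. Enzymes of the main chain differed less, with Gapdh at −0.0056, Pkm at −0.16, Eno1 at 0.076 and Aldoa at −0.073, none of them called, and Ldha, which makes lactate, just under the fold threshold (log2 fold change −0.99, SE 0.15, adjusted p = 0.000279). Hk2 was not called (log2 fold change −0.17, SE 0.21, adjusted p = 0.516), and its sign turned to 0.26 with the library size alone. Aldoc was the member higher with VWF (log2 fold change 2.29, SE 0.16, adjusted p = 1.17e-06).

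HIF-1alpha is an oxygen-regulated factor that is known to promote macrophage glycolysis, and its part in the values above was not tested. Of 18 hypoxia-response genes, 17 were tested. Of these, 8 were lower with VWF (median −1.06), and the other 9 were not called, although 1 was higher with the library size alone. Hif1a was at 78.5 to 126 CPM with VWF, 184 to 218 CPM with LPS and 63.6 to 87.5 CPM in controls, under the fold threshold (log2 fold change −0.90, SE 0.13, adjusted p = 0.000209). Egln3, the prolyl hydroxylase PHD3 that is itself a HIF target, was at 7.22, 3.76, 1.97, 2.47 and 1.32 CPM with VWF and 14.8, 15.6, 8.61 and 10.3 CPM with LPS (log2 fold change −1.88, SE 0.45, adjusted p = 0.00515). The lipid droplet gene Hilpda (log2 fold change −3.65, SE 0.31, adjusted p = 5.62e-06), Ndrg1 (log2 fold change −3.38, SE 0.32, adjusted p = 1.13e-05) and Vegfa at −1.91 were lower with VWF, and for Ndrg1 the VWF-treated cultures, at 6.89 to 16.3 CPM, lay below the controls, at 49.0 to 60.2 CPM. The letters ACGTG, the core of the hypoxia-response element, were in a promoter of 11 of the 14 genes of this list with a promoter in the set (78.6%). The share was 18.5% over all genes and 26.8% over the genes tested. Among called genes these letters were in a promoter of 24% of genes lower with VWF and of 29.1% of genes higher with VWF.

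Genes of pyruvate oxidation and the TCA cycle went the other way in part. Of 24 tested, 5 were higher with VWF and 19 were not called (median 0.28). All 5 act at isocitrate, succinyl-CoA or fumarate. Idh2, the mitochondrial NADP-dependent isocitrate dehydrogenase (ENSMUSG00000030541, chr7:80094846-80115392, minus strand), was at 88.8, 85.1, 87.4, 77.7 and 89.9 CPM with VWF and 13.3, 11.1, 15 and 13.1 CPM with LPS (log2 fold change 2.71, SE 0.11, adjusted p = 4.81e-08). With controls at 39.0 to 79.9 CPM, the LPS-treated cultures lay below both other groups. The others were Idh3a, the catalytic subunit of the NAD-dependent enzyme (log2 fold change 1.71, SE 0.079, adjusted p = 9.38e-08), the succinyl-CoA ligase subunit Suclg2 (log2 fold change 1.67, SE 0.13, adjusted p = 2.81e-06), fumarase Fh1 (log2 fold change 1.27, SE 0.083, adjusted p = 8.51e-07) and cytosolic Idh1 (log2 fold change 1.24, SE 0.13, adjusted p = 1.99e-05). Citrate synthase Cs at 0.12 and the succinate dehydrogenase subunit Sdha at 0.41 were not called.

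Nuclear genes of the respiratory chain and ATP synthase spanned log2 fold changes from −1.25 to 0.93, with a median of 0.16. Of 71 tested, 1 was called, Cycs, which encodes cytochrome c and was lower with VWF (log2 fold change −1.25, SE 0.10, adjusted p = 4.43e-06), and 22.6% of its 100-base windows also occur in Gm10053. With the library size alone 5 others were higher and Cycs was not called, without LPS replicate 4 there were 2 higher, and without LPS replicate 3 there were 2 lower. Mitochondrially encoded genes had a median of 0.69 over 11 tested, and mt-Nd1 (log2 fold change 1.46, SE 0.22, adjusted p = 0.000236) and mt-Nd2 (log2 fold change 1.32, SE 0.20, adjusted p = 0.000275), both subunits of complex I, were called, or 7 with the library size alone. The share of mitochondrial reads given above moves in the same direction, and its part in these values was not tested.

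Genes of cholesterol synthesis and uptake were higher with VWF where they were called. Of 20 tested, 6 were higher and 14 were not called (median 0.68), or 12 higher with the library size alone. The sterol transport gene Stard4 (log2 fold change 2.26, SE 0.14, adjusted p = 6.13e-07), Dhcr7 (log2 fold change 2.18, SE 0.26, adjusted p = 4.98e-05) and squalene epoxidase Sqle at 1.91 were among the 6. Ch25h, which makes 25-hydroxycholesterol, was lower with VWF (log2 fold change −3.30, SE 0.46, adjusted p = 0.000149), and Cyp27a1, which makes 27-hydroxycholesterol, was higher (log2 fold change 2.21, SE 0.39, adjusted p = 0.000828). Abca1, the cholesterol exporter and LXR target, was not called at 0.53.

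Proliferation genes formed the main group higher with VWF. Of 41 genes of DNA replication and nucleotide synthesis, 37 were tested, 32 were higher and 5 were not called (median 2.34). Of 40 mitosis genes, 26 were tested, 25 were higher and 1 was lower (median 3.36). Summed over the lists, replication genes were at 2651 to 2937 CPM with VWF, 822 to 989 CPM with LPS and 2267 to 2547 CPM in controls. The summed mitosis genes were at 721 to 1078, 167 to 246 and 1454 to 2176 CPM. For replication the VWF-treated cultures thus lay just above the controls, for mitosis below them, and the LPS-treated cultures lay below both groups in either list.

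Among replication genes, the helicase subunit Mcm7 was at 89.4 to 109 CPM with VWF and 4.44 to 6.31 CPM with LPS (log2 fold change 4.20, SE 0.14, adjusted p = 2.88e-08), thymidine kinase Tk1 at 64.1 to 86.0 and 1.11 to 4.59 CPM (log2 fold change 4.73, SE 0.35, adjusted p = 2.37e-06), and the ribonucleotide reductase subunit Rrm2 at 4.41. Cdc6, which loads the helicase, had 23.2, 20.0, 22.2, 18.9 and 22.4 CPM with VWF and 1.32, 1.21, 1.58 and 1.97 CPM with LPS (log2 fold change 3.82, SE 0.17, adjusted p = 8.38e-08). Pcna, the sliding clamp, was not called (log2 fold change 0.43, SE 0.15, adjusted p = 0.0293). Uhrf1, which maintains DNA methylation, differed by 4.28, the PCNA-binding Pclaf by 4.99 and the uracil glycosylase Ung by 5.06.

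Among mitosis genes, Ccna2 (cyclin A2) was at 25.2, 24.1, 23.9, 25.3 and 35.3 CPM with VWF and 0.758, 0.345, 0.312 and 1.11 CPM with LPS (log2 fold change 5.42, SE 0.38, adjusted p = 1.46e-06). Its control cultures held 53.7 to 104 CPM, and 12.5% of its exon length overlaps Exosc9. Top2a, the topoisomerase that separates sister DNA, was at 52.5, 50.7, 61.0, 44.0 and 79.0 CPM and 2.94, 1.55, 2.11 and 1.31 CPM (log2 fold change 4.86, SE 0.30, adjusted p = 5.91e-07), with controls at 85.1 to 114 CPM. Pbk differed by 5.00, Pimreg by 5.20, the polo-like kinase Plk1 by 4.26 and Mki67, the Ki-67 antigen, by 2.61. In each of Ccna2 and Top2a the 3 groups were in the order control, VWF, LPS without overlap. Tpx2, a spindle assembly factor, was the member lower with VWF (log2 fold change −2.06, SE 0.22, adjusted p = 2.7e-05), at 21.2 to 32 CPM beside 62.2 to 137 CPM with LPS and 34.7 to 58.8 CPM in controls.

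Regulators of the G1 phase went both ways. Of 14 tested, 8 were higher and 5 were lower with VWF. Higher were the cyclin E genes Ccne1 at 1.29 and Ccne2 (log2 fold change 3.60, SE 0.25, adjusted p = 1.44e-06), the transcription factors E2f1 at 1.05, E2f2 at 3.45 and Myc at 1.76, and Cdk2 at 1.19, with 17.4% of the exon length of Ccne2 overlapping Ints8. Lower were the CDK inhibitors Cdkn1a, which encodes p21 (log2 fold change −1.42, SE 0.1, adjusted p = 1.39e-06), Cdkn1b at −1.07 and Cdkn2d at −2.43, and the D cyclins Ccnd2 (log2 fold change −3.24, SE 0.30, adjusted p = 8.83e-06) and Ccnd3 at −1.29. The inhibitor Cdkn2c went against the others of its kind at 2.30. With the library size alone 2 of the members were lower.

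Lists of purine synthesis and ribosome biogenesis were added after their values had been seen. Of 13 tested purine genes, 11 were higher with VWF (median 1.89), among them Mthfd1 (log2 fold change 2.66, SE 0.25, adjusted p = 1.01e-05) and Gart at 2.23. Of 15 tested ribosome biogenesis genes, 11 were higher (median 1.35), among them the pseudouridine synthase Dkc1 at 2.37 and nucleophosmin Npm1 at 1.51. Cytosolic ribosomal protein genes had a median of 0.48 over 77 tested and 3 were higher with VWF, a count that was 0 without LPS replicate 3, 8 without LPS replicate 4 and 30 with the library size alone. Rpl3 (log2 fold change 1.08, SE 0.14, adjusted p = 7.52e-05) was among the 3, all of them just past the fold threshold, and 28.8% of its 100-base windows occur in other genes. The share of reads on ribosomal protein genes given above moves in the same direction, and its part in these values was not tested.

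**Figure D3:**
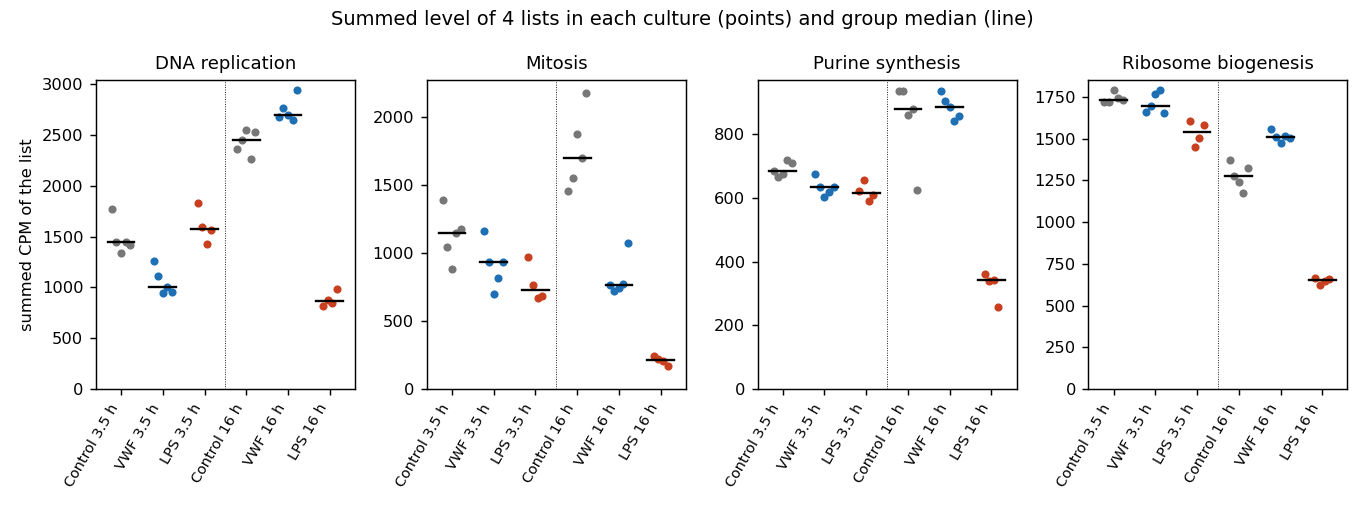
Summed CPM of the members of 4 lists, DNA replication, mitosis, purine synthesis and ribosome biogenesis (vertical axes), in each culture of the 6 groups of control, VWF and LPS at 3.5 h and 16 h (horizontal axis), with a line at the group median. At 16 h the LPS-treated cultures lie below the VWF-treated cultures in all 4 lists, for replication at 822 to 989 CPM beside 2651 to 2937 CPM.

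Promoters were searched for CCAAT, the letters bound by NF-Y, and for TTTNNCGC, a core of the E2F site. CCAAT occurred for 37.5% of all genes with a promoter in the set, 40.5% of the genes tested and 47.1% of genes higher with VWF. It occurred for 18 of 30 replication genes (60%) and 16 of 20 mitosis genes (80.0%). The E2F letters occurred for 4.94% of all genes, 8.62% of the genes tested and 11% of genes higher with VWF. They occurred for 7 of 30 replication genes (23.3%) and 2 of 20 mitosis genes (10%). Top2a is shown because its promoter holds 6 CCAAT matches, Pclaf because it holds a pair of them on opposite strands, and Cdc6 because it holds an E2F match. Capitals mark the matches on either strand.
Cdc6 E2F, chr11:98907998-98908035, plus strand: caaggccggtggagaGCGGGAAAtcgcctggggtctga
Pclaf CCAAT, chr9:65890242-65890301, plus strand: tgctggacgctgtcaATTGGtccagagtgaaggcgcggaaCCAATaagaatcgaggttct
Top2a CCAAT, chr11:99024228-99024431, minus strand: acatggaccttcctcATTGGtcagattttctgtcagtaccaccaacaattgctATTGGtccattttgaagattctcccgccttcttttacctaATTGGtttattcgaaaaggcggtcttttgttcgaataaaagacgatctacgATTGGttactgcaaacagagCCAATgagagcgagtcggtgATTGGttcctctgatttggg

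Secreted and matrix genes were lower with VWF more often than higher. Of 16 tested proteases, matrix and coagulation genes, 8 were lower and 1 was higher (median −1.17), or 2 higher with the library size alone and 3 in a fit of all 28 cultures. Spp1, osteopontin, was at 1126, 1065, 1035, 1548 and 1071 CPM with VWF, 16045, 17108, 10058 and 19272 CPM with LPS and 23720.0 to 36765 CPM in controls (log2 fold change −3.74, SE 0.22, adjusted p = 4.14e-07), so that both treated groups lay below the background and VWF-treated cultures lowest, with 18.8% of its exon length overlapping Gm42793. Collagenase Mmp13 (log2 fold change −4.99, SE 0.17, adjusted p = 3.15e-08), coagulation factor X gene F10 (log2 fold change −3.82, SE 0.22, adjusted p = 3.98e-07) and thrombospondin Thbs1 at −3.2 were lower with VWF, and the gelatinase Mmp9 was higher (log2 fold change 2.38, SE 0.41, adjusted p = 0.000682). Among 11 tested acute-phase and antimicrobial genes, 2 were higher and 5 were lower, and 1 was higher without VWF replicate 4 or in a fit of all 28 cultures. Saa3, serum amyloid A3, was at 5209.9, 6559, 4801, 6806 and 2460.4 CPM with VWF and 12516, 17999, 14320.4 and 36706 CPM with LPS, far above the 2.24 to 37.8 CPM of controls in both (log2 fold change −1.98, SE 0.38, adjusted p = 0.00123). Lcn2, the siderophore-binding lipocalin, was at 55.1 to 105 CPM with VWF, 477 to 649.8 CPM with LPS and 0.212 to 1.91 CPM in controls (log2 fold change −2.72, SE 0.19, adjusted p = 1.57e-06). Haptoglobin Hp was not called at −0.26.

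Stress and degradation genes were called in both directions. For these counts, the shares over all genes tested were 11.1% higher and 14.5% lower with VWF. Of 12 tested antioxidant targets of NRF2, 2 were lower with VWF, heme oxygenase Hmox1 (log2 fold change −1.44, SE 0.16, adjusted p = 3.42e-05) and the cystine transporter Slc7a11 (log2 fold change −2.24, SE 0.20, adjusted p = 9.06e-06), while Nqo1 was at 0.015 and Gclm at 0.23. Of 17 genes of the unfolded protein and integrated stress responses, 4 were higher and 3 were lower. The higher ones included the chaperone genes Sdf2l1 (log2 fold change 1.97, SE 0.13, adjusted p = 1.01e-06) and Pdia4 at 1.32, and the lower ones were Ddit3, which encodes CHOP (log2 fold change −1.90, SE 0.15, adjusted p = 3.3e-06), Trib3 at −1.95 and Psat1 at −1.09. Of 35 lysosomal genes, 6 were lower and 29 were not called (median −0.38), and with the library size alone 1 was lower and 3 were higher, with a median of 0.057, and 1 was higher without LPS replicate 3. The alpha-galactosidase Gla (log2 fold change −1.56, SE 0.10, adjusted p = 8.47e-07) and Npc2, a lysosomal cholesterol carrier (log2 fold change −1.30, SE 0.21, adjusted p = 0.000466), were among the 6. Of 6 pentose phosphate genes, Pgls was the member higher with VWF (log2 fold change 1.08, SE 0.30, adjusted p = 0.0102), beside 3 with the library size alone. This was a call that was lost without LPS replicate 1 or 3 or VWF replicate 4, and 20.6% of its exon length overlaps Fam129c.

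A few of the most different genes belong to none of these groups. Lipg, endothelial lipase (log2 fold change −10.81, SE 0.51, adjusted p = 1.35e-07), had at most 17 reads in a VWF-treated culture and 118 to 333 CPM with LPS. Clic5, a chloride intracellular channel protein gene, was at 0.0710 to 0.127 CPM with VWF and 23.1 to 59.5 CPM with LPS (log2 fold change −8.79, SE 0.35, adjusted p = 5.68e-08). The predicted genes Gm15056 at −8.19 and Gm4841 at −8.16 had 14 and 15 reads in all 5 VWF-treated cultures. In the other direction Pald1, which encodes paladin, was at 54.5, 51.7, 44.5, 66.4 and 24.9 CPM with VWF and 0.914, 0.576, 0.288 and 0.555 CPM with LPS (log2 fold change 6.36, SE 0.40, adjusted p = 7.44e-07), the largest fold higher with VWF. Measured as the difference in mean CPM, which is not per length, Tgfbi (log2 fold change 1.27, SE 0.24, adjusted p = 0.00125), an extracellular matrix protein gene, and Cotl1 (log2 fold change 1.23, SE 0.10, adjusted p = 3.64e-06), which binds F-actin, stood beside Lyz2, Marco and mt-Nd1 as the 5 called genes with the largest excess with VWF.

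The 3.5 h cultures address whether the difference between VWF and LPS was already present early. Change was tested as an interaction, the VWF minus LPS difference at 16 h less the same difference at 3.5 h, in 1 fit of 18 cultures that do not overlap between the times. Of 8217 genes tested, 2052 were called (25.0%), with 1173 more negative (14.3%) and 879 more positive (10.7%) at 16 h. Leaving out LPS 16 h replicate 4 gave the highest count of the more positive genes, 1120, beside a lowest of 794 without VWF 16 h replicate 4. Nos2 had the lowest value (log2 difference −11.45, SE 0.52, adjusted p = 5.82e-11), from −1.49 at 3.5 h to −12.94 at 16 h in that fit. Its VWF-treated cultures held 33.4 to 59.5 CPM at 3.5 h and 0.0943 to 0.492 CPM at 16 h, while LPS-treated cultures held 107 to 169 and 999.9 to 2863 CPM.

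For the tested cytokines the median VWF minus LPS difference was −0.89 at 3.5 h and −3.69 at 16 h. Tnf differed between VWF and LPS by −0.19 at 3.5 h, with 2244 to 2683 CPM with VWF and 2725 to 3006 CPM with LPS, and the change to 16 h was called (log2 difference −2.53, SE 0.16, adjusted p = 1.29e-09). For Il1b the early difference was −0.21 and the change was larger (log2 difference −6.14, SE 0.38, adjusted p = 1.29e-09). Of 16 cytokine genes tested, 14 became more negative, as did 14 of 19 chemokines, 16 of 16 inhibitors of NF-kappaB, MAP kinase and cytokine signalling, 10 of 12 effector enzymes and 12 of 17 hypoxia-response genes. Of the 34 interferon-response genes, 15 became more negative, and their median VWF minus LPS difference at 3.5 h was −1.73. In the other direction, 33 of 37 replication genes, 25 of 26 mitosis genes, 5 of 24 TCA cycle genes and 25 of 77 ribosomal protein genes became more positive.

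Some genes changed side. Flrt3, a membrane protein gene, was 2.91 at 3.5 h and −5.90 at 16 h (log2 difference −8.81, SE 0.40, adjusted p = 5.82e-11). Saa3 was higher with VWF at 3.5 h, at 2.18, and lower at 16 h (log2 difference −4.21, SE 0.50, adjusted p = 2.43e-06). Cdc6 went from −1.87 at 3.5 h to 3.77 at 16 h (log2 difference 5.64, SE 0.36, adjusted p = 2.27e-09), and Fignl1, a DNA repair gene, reached a change of 4.80 from −0.47 at 3.5 h. Other large changes were of genes that passed no threshold at 3.5 h. Hcar2 was at 0.22 at 3.5 h (adjusted p = 0.563 in edgeR's test), with means of 47.8 CPM with VWF and 41 CPM with LPS, and changed by −7.87. Gstt4, a glutathione transferase gene with 28 reads in all 5 VWF-treated cultures at 16 h, was at 0.25 at 3.5 h (adjusted p = 0.802), with means of 0.0830 and 0.0706 CPM, and changed by −7.67. Under the library size alone the median of the change over all genes was 0.093 in place of −0.080, and 2070 genes were called, 1172 more positive and 898 more negative.

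**Figure D4:**
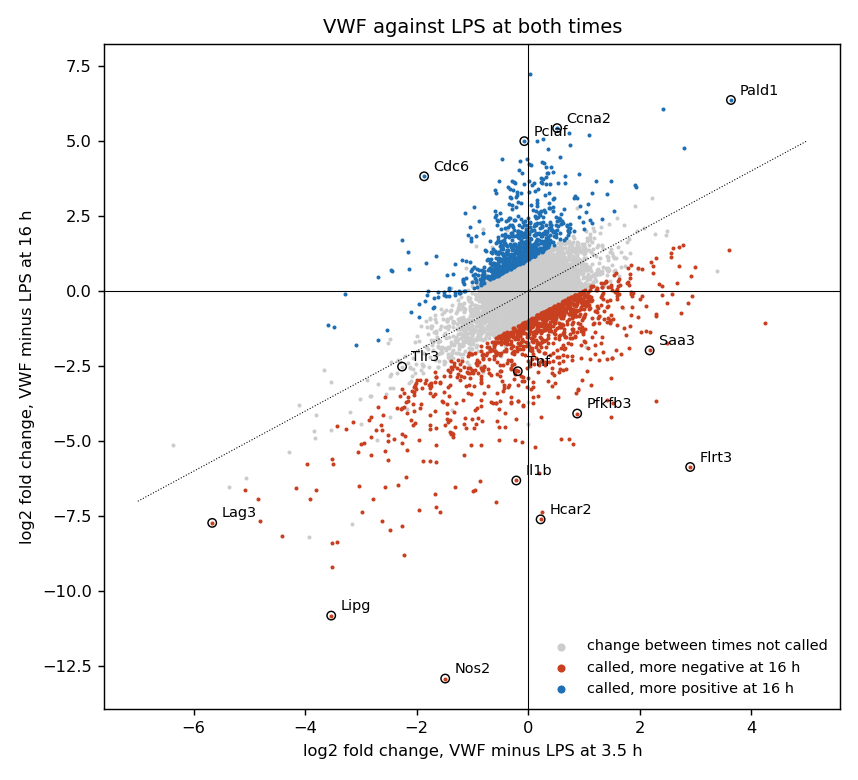
Log2 fold change of VWF over LPS at 16 h (vertical axis) against the same at 3.5 h (horizontal axis), with 1 point for each of 7574 genes, coloured by whether the change between the times was called. Nos2 lies lowest at 16 h, and Saa3 lies right of 0 at 3.5 h and below 0 at 16 h.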

How the data were processed

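RNA sequencing was performed on 28 cultures of bone marrow-derived macrophages. The authors aligned paired-end reads to GRCm38 (mm10) with STAR, and the deposited table holds unnormalized, unfiltered read counts of 54532 Ensembl genes. Which annotation they used, whether strand was considered and how multi-mapped reads were handled are not given in the sources used. Condition, time and replicate number came from the labels, which give no batch or date.

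Exon lengths and TPM were computed with GENCODE M21, which matched 54495 genes. Genes with at least 10 TPM in 1 culture of a fit were tested with edgeR's quasi-likelihood test (R 4.3.3, edgeR 4.0.16, robust dispersions, TMM factors), on the 9 cultures for VWF against LPS at 16 h and on 18 cultures for the interaction with time. The thresholds, an adjusted p of 0.05 (Benjamini-Hochberg) and an absolute log2 fold change of 1, and the filter are those of the study, which used DESeq2. The test was checked on simulated data. CPM used TMM factors over all 28 cultures. Deviations of same-numbered VWF and LPS cultures at 16 h from their group means had correlations of 0.20 to 0.81 over 4 pairs. Differently numbered pairs ran from −0.78 to 0.44, so these ranges overlapped. For LPS replicates 2, 3 and 4 the same-numbered VWF culture had the highest correlation. For LPS replicate 1 that was VWF replicate 3, at 0.44 beside 0.40 for VWF replicate 1. The numbers, taken from the labels, were treated as pairing the cultures in an alternative fit with a block. No culture repeated another (chi-square per degree of freedom at least 16.1 over 16 pairs within groups).

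The comparison and the gene lists were chosen with earlier results of these data known, and 5 lists (purine synthesis, ribosome biogenesis, caspases, Schlafen and Ifi200 genes) were added after their values had been seen. Of 815 list names, 2 had no match. Genes named are the 8 with the largest fold in each direction among called genes without overlap and with at least 10 CPM in the higher group, the 5 with the largest difference in mean CPM in each direction, genes the study names, list members, and the 5 with the largest interaction in each direction. Read counts named in the text were looked up afterwards. Sharing of sequence was computed as the percentage of a gene's 100-base transcript windows found in another gene. RefSeq promoters were found for 5891 of the 7574 genes tested. Alternatives were DESeq2 1.42.0, limma 3.58.1 (voom with sample weights), other scaling and filters, the block, and leaving out each culture.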

Additional observations from a re-analysis of the deposited data

Results flagged for a closer look

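Within the 5 VWF-treated or the 4 LPS-treated cultures at 16 h, 15 of 224 gene and group combinations had 1 culture far from the rest by Dixon's test at the 95% level, where chance gives about 1 in 20. VWF replicate 5 accounted for 7 of them, VWF replicate 4 for 3, VWF replicate 3 for 1, and LPS replicates 3 and 4 for 2 each. In VWF replicate 5, Ccna2 was at 35.3 CPM, Pbk at 22.2 CPM, Dusp1 at 47.0 CPM and Ndrg1 at 16.3 CPM, each above the other 4 cultures. In the same culture Cxcl11 was at 0.0732 CPM, Fcgr1 at 521 CPM and Hmox1 at 1734 CPM, each below the other 4. VWF replicate 4 was the highest of its group for Spp1 at 1548 CPM, H2-Eb1 at 24.7 CPM and Pgls at 300.9 CPM, and VWF replicate 3 was the highest for Slc7a11 at 25.6 CPM. LPS replicate 3 was the lowest of its group for Ccl24 at 2.47 CPM and the highest for Uhrf1 at 4.96 CPM. LPS replicate 4 was the highest for Ccne2 at 3.58 CPM and Fignl1 at 2.14 CPM. The VWF-treated and LPS-treated cultures overlapped for Pgls, and in the other 14 genes they did not.

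The difference between VWF and LPS changed from 3.5 h to 16 h by the interaction test in 2052 genes, 879 more positive and 1173 more negative. On the log2 scale the largest changes toward lower values with VWF were −11.45 for Nos2, −8.81 for Flrt3, −7.87 for Hcar2, −7.67 for Gstt4 and −7.31 for Lipg. Those toward higher values with VWF were 5.64 for Cdc6, 5.01 for Pclaf, 4.86 for Ccna2 and 4.80 for both Pbk and Fignl1.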

How the results depend on the processing

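The number of genes called between VWF and LPS at 16 h, 1932 (837 higher and 1095 lower with VWF), moved by over 1.5 times under some changes of the filter and under changes of the fold threshold. It was 3897 with edgeR's filterByExpr (1820 higher, 2077 lower), 4242 with no filter (1903 and 2339), 1270 in a test against a fold of 2 (494 and 776) and 4586 without a fold threshold (2237 and 2349), where more or fewer genes are tested or pass by construction. A filter of 10 CPM gave 2253 genes and the 10 TPM filter over all 28 cultures gave 2239, both within 1.5 times. Scaling by library size alone gave 1726 higher and 700 lower, and turned Hk2 to 0.26. The interaction with time, 2052 genes, became 3576 with filterByExpr (1766 more positive, 1810 more negative), 3528 with no filter (1668 and 1860), 974 against a fold of 2 (383 and 591) and 4329 without a fold threshold (1926 and 2403). With the replicate number as a block, 1943 genes were called (863 higher, 1080 lower), 1881 of them also called without it, and 2075 for the interaction, and the block lost the call of Mertk (−0.96) and of no other named gene. Leaving out 1 culture gave 1875 to 2034 genes (816 to 902 higher, 1046 to 1132 lower) and 1882 to 2408 for the interaction (794 to 1120 more positive, 1066 to 1288 more negative). DESeq2 called 1942 and 2076. Of 112 named genes, 101 kept direction and side of the thresholds under the 15 alternatives computed for single genes (DESeq2, limma voom, other scalings, the block, 1 fit of all cultures and leaving out each of the 9), where a value could be had, which leave out the other filters and fold thresholds. Library size alone took the call from Slc2a1 (−0.93), Arg1 (−1.41), Mertk (−0.57), Cycs (−0.80), Lamp2 (−0.96) and Npc2 (−0.85), and single cultures decided those of Arg1, Mertk, Pgls, Rpl13a, Rpl3 and Rpl10a.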
